A study of Mus musculus with 4 samples.

Results

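The 10 genes described here mark the contractile cells of vessel walls in fat: Acta2, Myh11, Tagln, Cnn1 and Des, which build the contractile machinery of smooth muscle, and Cspg4, Rgs5, Pdgfrb, Notch3 and Mcam, which mark pericytes and the cells next to them. They are 10 of 22180 genes measured, chosen by name, and each is represented by the probe set with exactly 1 gene symbol and the highest mean signal. The tissue, epigonadal white fat, is a visceral pad next to the testis. It was taken from male mice after a fast, and each of 4 genotypes had 1 array. LDKO mice carried floxed Irs1 and Irs2 (insulin receptor substrates) together with Albumin cre, a recombinase driven by a promoter active in hepatocytes, and the Irs1/2-flox control was labelled with the same floxed genes and no Cre. LTKO mice carried floxed Irs1, Irs2 and FoxO1 (a transcription factor restrained by insulin) together with Albumin cre, and the Irs1/2:FoxO1-flox control was labelled with those floxed genes and no Cre. All 4 groups shared the floxed Irs1 and Irs2 genes. The Cre acts in liver cells, so the fat itself is not the tissue in which the genes were targeted. An age of 4 months is given for the LDKO and LTKO mice and none for the controls. Whether the RNA on an array came from 1 mouse or from a pool is not stated.

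Smooth muscle cells and pericytes are the mural cells, which wrap the endothelium of arteries, veins and capillaries and set vessel tone. Their contractile genes are switched on together by serum response factor (SRF), which binds a short AT-rich DNA element called the CArG box, and by its partner myocardin. Pericytes are held on capillaries by platelet-derived growth factor from endothelial cells, read by the receptor encoded by Pdgfrb, and Notch3 receives signals from ligands on neighbouring endothelium. In white fat, mural cells accompany the capillaries around adipocytes, and some adipocyte progenitors carry mural markers.

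Promoter sequence is shown for 3 of the genes because Acta2 and Cspg4 had the largest LDKO differences among the 10, in opposite directions, and Cnn1 is shown beside them as a contractile gene whose window held no such match. RefSeq windows of build GRCm38.p6, from 250 bases before to 50 bases after a gene's start, were used for 7 of the 10 genes. No window was matched for Myh11 and Tagln, Pdgfrb was left out of the search, and all of these are named only. Capitals mark each CArG box match with at most 1 base off the consensus. The windows are chr19:34255324-34255623 on the minus strand for Acta2, chr9:22099003-22099302 on the plus strand for Cnn1 and chr9:56864854-56865153 on the plus strand for Cspg4.
Acta2: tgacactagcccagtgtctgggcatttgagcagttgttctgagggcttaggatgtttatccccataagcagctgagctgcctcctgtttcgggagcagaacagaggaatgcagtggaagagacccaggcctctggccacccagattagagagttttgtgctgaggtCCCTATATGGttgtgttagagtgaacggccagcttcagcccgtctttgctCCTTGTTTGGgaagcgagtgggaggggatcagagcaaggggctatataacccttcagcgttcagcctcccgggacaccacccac
Cnn1: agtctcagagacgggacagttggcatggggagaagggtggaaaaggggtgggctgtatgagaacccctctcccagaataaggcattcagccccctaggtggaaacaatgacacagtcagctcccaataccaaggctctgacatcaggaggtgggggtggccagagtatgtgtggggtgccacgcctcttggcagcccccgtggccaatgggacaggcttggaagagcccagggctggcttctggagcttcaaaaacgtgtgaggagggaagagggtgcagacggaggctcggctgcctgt
Cspg4: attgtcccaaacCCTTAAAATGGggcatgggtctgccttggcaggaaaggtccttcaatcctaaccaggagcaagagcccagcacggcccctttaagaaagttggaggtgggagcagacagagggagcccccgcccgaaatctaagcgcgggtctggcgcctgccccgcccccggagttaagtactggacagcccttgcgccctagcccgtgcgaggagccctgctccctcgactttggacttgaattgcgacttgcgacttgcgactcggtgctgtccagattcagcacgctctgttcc
The CArG box reads the same on both strands. No window of the 7 genes held an exact CArG box, which 1.63% of all 32851 windows of this length did. Matches with 1 base off were present in 21.1% of all windows. Acta2 held 2 of them, at -84 to -75 and at -34 to -25 counted from the start, with the letters CCCTATATGG and CCTTGTTTGG. Cspg4 held 2 that overlap each other, CCTTAAAATG and CTTAAAATGG, and the other 5 windows held none. TGGGAA, the core letters bound by the Notch partner RBPJ, was searched on both strands, occurred in 25.6% of all windows, and was found among the 7 only in Acta2, at -27 to -22, inside and just past the second CArG match. These matches describe letters in the window and do not show binding.

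All values below are log2 signals made with RMA, a method that corrects the background, equalises the distributions of the arrays and sums up the probes of a set, and 1 unit is 2-fold. Signals of different genes are not compared, because a probe set's brightness also depends on its sequence. Since each group has 1 array, differences come without a standard error, a replicate check or a test, and their precision is limited by the low number of arrays. A difference is therefore set against how often genes in general differ as much. A gene counts as different at 2-fold or, as a lower mark, at 1.5-fold, among genes that reached 5.15, the level of the median gene, on at least 1 array of the comparison. All 10 genes reached it in every comparison. Cspg4, at 5.12 in the Irs1/2-flox control, did so through the other array alone in LDKO against its control and between the controls. In bulk tissue, fewer mural cells and less RNA per mural cell cannot be told apart.

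The arrays looked like fat: all 10 adipocyte markers lay at or above percentile 92.1 of genes by mean signal, with Fabp4, the fatty acid carrier, between 12.98 and 13.09 and Adipoq (adiponectin) between 10.35 and 10.57. The median signals of the arrays lay between 4.68 and 4.73, and Pearson's r between arrays across genes between 0.986 and 0.991, which is a description, since genes are not replicates. Markers of other tissues set some arrays apart. The mean log2 signal of 17 skeletal muscle markers was 5.86 in the Irs1/2-flox control and between 5.07 and 5.19 in the other 3 arrays. Likewise 12 mesothelial markers, genes of the layer that covers the pad, averaged 7.12 there and between 6.46 and 6.57 elsewhere. In LTKO, 9 epididymis markers averaged 5.62, against 3.66 to 3.74 in the other arrays, 6 sperm markers averaged 6.59, against 4.75 to 4.81, and 6 hepatocyte markers averaged 6.66, against 4.58 to 4.65. The duct of the epididymis has a smooth muscle coat, and the part of such tissue in the values below was not tested.

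**Figure D1:**
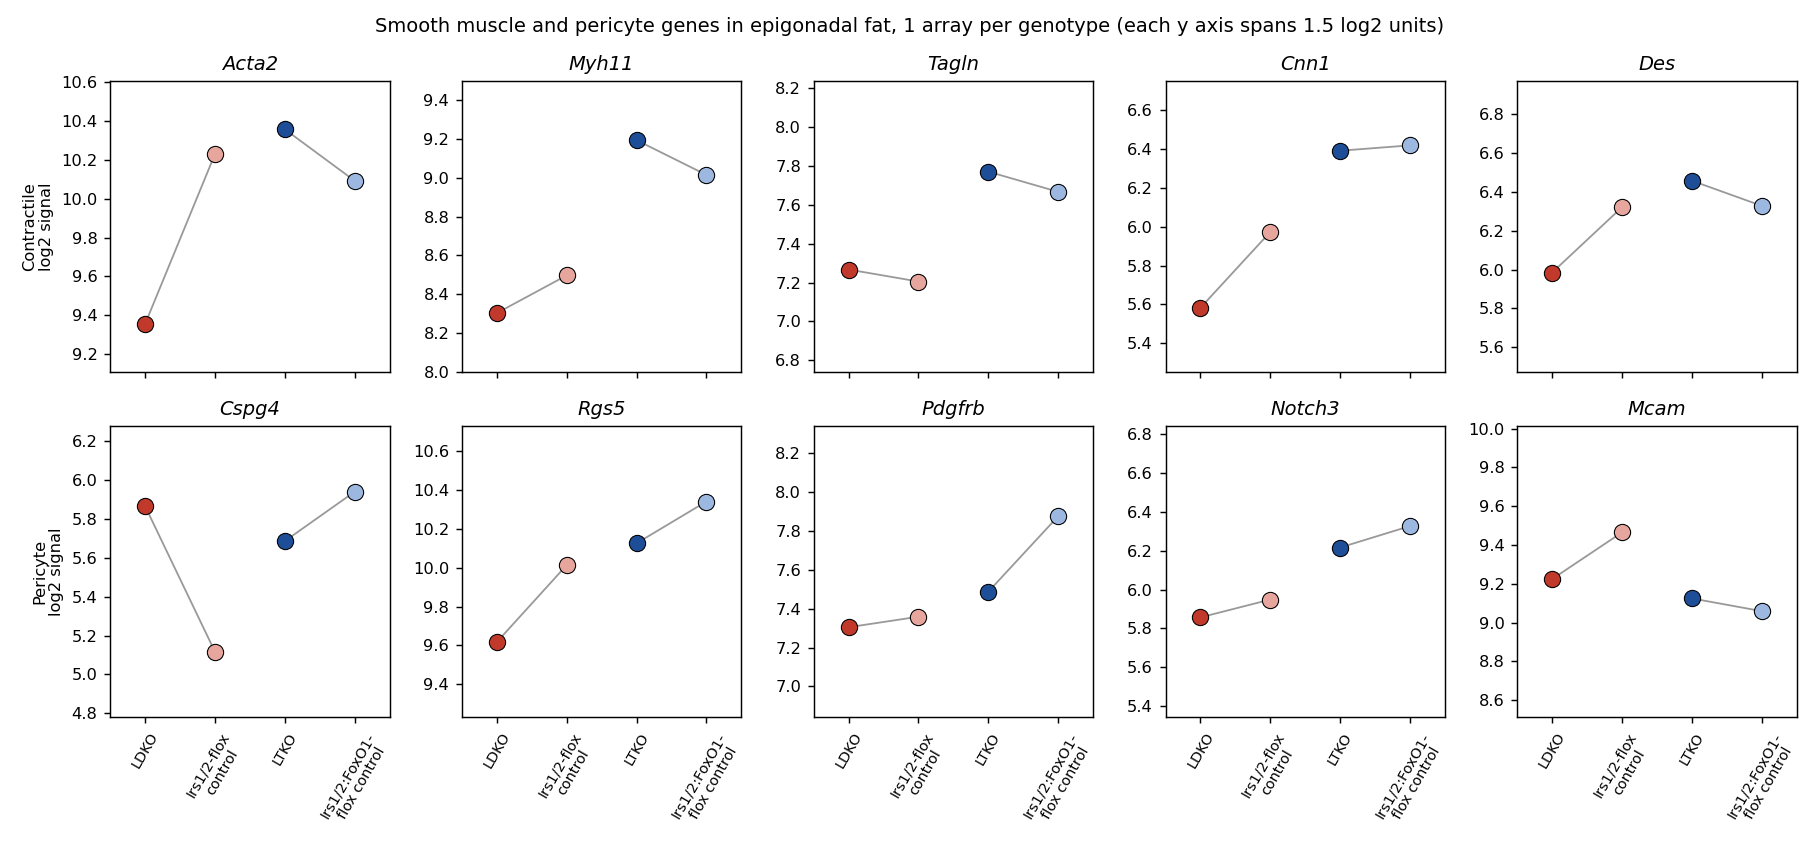
Log2 signal (y axis, 1.5 units in each panel) of the 10 genes in the 4 arrays, contractile genes in the upper row and pericyte genes in the lower, each point 1 array and each line joining a Cre array to its control. LDKO is the lowest array for 7 of the 10 genes, and Acta2 shows the widest range, 1.00.

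Acta2, which encodes the smooth muscle actin of the contractile filament, was 9.36 in LDKO, 10.23 in the Irs1/2-flox control, 10.36 in LTKO and 10.09 in the Irs1/2:FoxO1-flox control. LDKO thus stood alone, with the other 3 arrays within 0.27 of each other. Myh11, the smooth muscle myosin heavy chain and the most specific marker of mature smooth muscle, was 8.30 in LDKO, 8.50 in the Irs1/2-flox control, 9.19 in LTKO and 9.01 in the Irs1/2:FoxO1-flox control. Here the arrays grouped by floxed line: both arrays with floxed FoxO1 were above both without. Tagln, which encodes the actin-bundling protein transgelin (SM22), was 7.27 in LDKO, 7.21 in the Irs1/2-flox control, 7.77 in LTKO and 7.67 in the Irs1/2:FoxO1-flox control. It showed the same split by line, with 0.06 and 0.10 between the arrays of a line.

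Cnn1, the calponin that binds actin and damps the myosin motor, was 5.58 in LDKO, 5.97 in the Irs1/2-flox control, 6.39 in LTKO and 6.42 in the Irs1/2:FoxO1-flox control. It followed the floxed lines too, with LDKO lowest. Des, the intermediate filament desmin, was 5.99 in LDKO, 6.32 in the Irs1/2-flox control, 6.46 in LTKO and 6.33 in the Irs1/2:FoxO1-flox control. Skeletal muscle also makes desmin, and the part of skeletal muscle in these Des values was not tested. A further probe set shared by Des and Gm15179 lay between 4.02 and 4.34 and was not used.

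Among the pericyte genes, Rgs5, a regulator that shuts off G protein signals and a common marker of pericytes, was 9.62 in LDKO, 10.01 in the Irs1/2-flox control, 10.13 in LTKO and 10.34 in the Irs1/2:FoxO1-flox control. Its second, dimmer probe set gave the same order, with 5.74, 6.24, 6.40 and 6.62 in those arrays. Pdgfrb, the receptor for the platelet-derived growth factor that recruits pericytes, was 7.30 in LDKO, 7.36 in the Irs1/2-flox control, 7.49 in LTKO and 7.88 in the Irs1/2:FoxO1-flox control. The 3 lower arrays lay within 0.18 of each other, so that Pdgfrb was set apart mainly by 1 control. Notch3, the Notch receptor of mural cells, was 5.86 in LDKO, 5.95 in the Irs1/2-flox control, 6.22 in LTKO and 6.33 in the Irs1/2:FoxO1-flox control, again with the arrays of each line together.

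The remaining pericyte genes did not follow that order. Cspg4, which encodes the NG2 proteoglycan of the pericyte surface, was 5.87 in LDKO, 5.12 in the Irs1/2-flox control, 5.69 in LTKO and 5.94 in the Irs1/2:FoxO1-flox control. The Irs1/2-flox control was the array that stood apart, by at least 0.57 from each other array. Mcam, the adhesion molecule CD146, which endothelium also carries, was 9.22 in LDKO, 9.47 in the Irs1/2-flox control, 9.13 in LTKO and 9.06 in the Irs1/2:FoxO1-flox control. Both arrays of the floxed FoxO1 line were below both of the other line.

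Over the 4 arrays the lowest value was that of LDKO for 7 of the 10 genes, the exceptions being Tagln, Cspg4 and Mcam. LDKO was the lowest array for 38.7% of the 11090 genes whose mean reached the median gene. Both arrays with floxed FoxO1 lay above both without it for 7 of the 10 (Myh11, Tagln, Cnn1, Des, Rgs5, Pdgfrb and Notch3), against 23.4% of those genes. For Des that separation was 0.01. Mcam alone had the reverse separation, as did 13.9% of genes. The range over the 4 arrays ran from 0.41 for Mcam to 1.00 for Acta2.

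The first comparison asks how these genes differ in fat when the liver lacks Irs1 and Irs2. In LDKO, 8 of the 10 genes were lower and 2 higher than in the Irs1/2-flox control, with a median difference of -0.22, against -0.05 over 11533 genes. Genes below their control made up 56.7% of those genes. Acta2 was lower by 1.83-fold (-0.88), Rgs5 differed by -0.40, Cnn1 by -0.39 and Des by -0.34. Cspg4 went the other way and was 1.68-fold higher (0.75), while Tagln, Pdgfrb and Notch3 differed by 0.06, -0.05 and -0.09. None of the 10 was 2-fold apart, where 1.2% of genes were, and 2 were 1.5-fold apart, Acta2 and Cspg4, where 6.74% of genes were. Cspg4 passed the filter there through LDKO alone, so its part in that count is no result.

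These differences depended on which control was used. Against the Irs1/2:FoxO1-flox control, Acta2 in LDKO differed by -0.74 and kept most of its size. Myh11 then differed by -0.71, Cnn1 by -0.84, Rgs5 by -0.72 and Pdgfrb by -0.57, all larger than against their own control. Cspg4 differed by -0.07 there, so that its higher level in LDKO rested on the low value in the Irs1/2-flox control. The median of the 10 was -0.52 against that control. Acta2 was the only one of the 10 genes for which LDKO lay at least 1.5-fold below each other array, a pattern that 1.0% of 11090 genes showed.

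**Figure D2:**
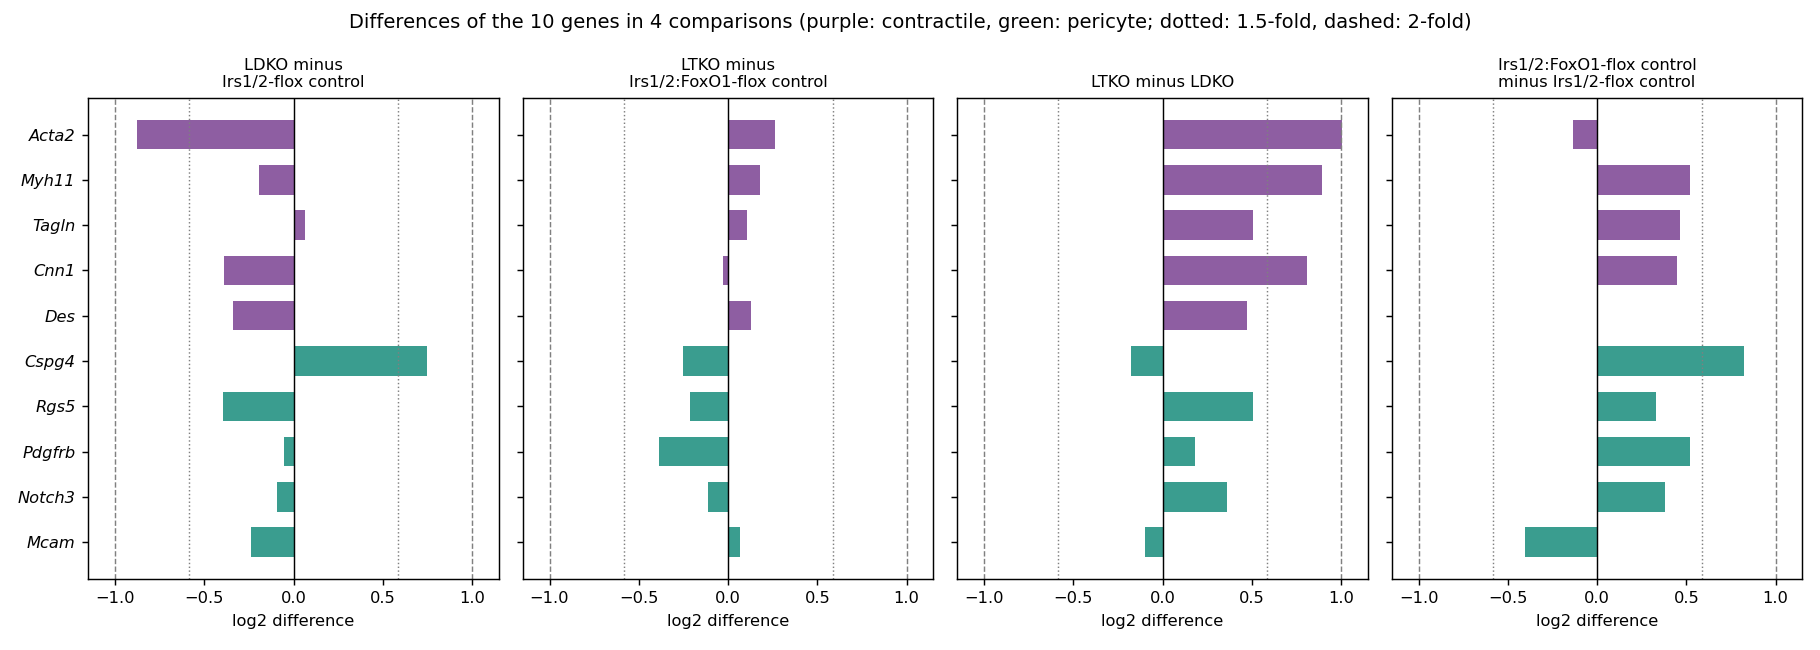
Log2 differences (x axes) of the 10 genes in 4 comparisons, 1 array against 1 array in each, with dotted lines at 1.5-fold and dashed lines at 2-fold. Acta2 is the longest bar to the left in LDKO against its control (-0.88) and reaches 1.00 in LTKO against LDKO, while no bar passes 1.5-fold in LTKO against its control.

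The second comparison addresses fat of mice in which hepatocytes lack FoxO1 too. In LTKO, 5 of the 10 genes were above and 5 below the Irs1/2:FoxO1-flox control, and none was 1.5-fold apart, where 4.41% of 11533 genes were (1.78% at 2-fold). With this control as reference, most contractile genes lay above it and most pericyte genes below it. Of the contractile genes, Acta2 was higher by 0.27, Myh11 by 0.18, Des by 0.13 and Tagln by 0.10, and Cnn1 differed by -0.03, for a median of 0.13. Of the pericyte genes, Pdgfrb differed by -0.39, Cspg4 by -0.25, Rgs5 by -0.22 and Notch3 by -0.11, and Mcam by 0.07, for a median of -0.22. The median over all genes was -0.03, and the median size of a difference in either direction was 0.13. Against the Irs1/2-flox control all 5 pericyte differences changed sign. Cspg4 was then at 0.57, Notch3 at 0.27, Pdgfrb at 0.13, Rgs5 at 0.11 and Mcam at -0.34. The contractile genes all lay above that control, from 0.13 for Acta2 to 0.70 for Myh11. Against the Irs1/2:FoxO1-flox control the 9 epididymis markers measured had a median of 1.5, from 0.36 for Rnase10 to 5.31 for Gpx5, and the 6 sperm markers a median of 2.23. Of the epididymis markers, 6 passed the filter on dim genes, each through LTKO alone, so their count is no result. Of 23 other contractile genes 16 were higher, where 42.8% of all genes were. Among them were the myosin light chain kinase gene Mylk at 0.71 and Nexn, an actin-binding protein, at 0.78. Both genes had their lowest value in the Irs1/2:FoxO1-flox control, 6.21 for Mylk and 5.44 for Nexn. Mylk was highest in LTKO, with 6.92. Nexn was 6.22 in LTKO, below the 6.69 of the Irs1/2-flox control. What share of the contractile signal came from the duct was not tested.

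The third comparison set LTKO directly against LDKO, to ask how fat differs when FoxO1 is missing in addition, although it also holds any difference between the floxed lines. All 5 contractile genes were higher in LTKO: Acta2 by 1.00, Myh11 by 0.89, Cnn1 by 0.81, Tagln by 0.50 and Des by 0.47. Of the pericyte genes, Rgs5 was higher by 0.51, Notch3 by 0.36 and Pdgfrb by 0.18, while Mcam differed by -0.10 and Cspg4 by -0.18. The median of the 10 was 0.49, that of the contractile genes 0.81 and that of the pericyte genes 0.18, against 0.05 over 11660 genes. At least 2-fold higher was 1 of the 10, Acta2, where 1.51% of genes were, and at least 1.5-fold higher were 3, Acta2, Myh11 and Cnn1, where 5.41% were. Acta2 lay on the 2-fold mark itself, and at 0.99 with the arrays centred on the median gene.

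The controls gave a gauge of how far the floxed lines differ without Cre. In the Irs1/2:FoxO1-flox control, 8 of the 10 genes were higher than in the Irs1/2-flox control, where 55.5% of 11432 genes were, with a median of 0.41, against 0.03 over those genes. Cspg4 was higher by 0.82, Myh11 and Pdgfrb by 0.52, Tagln by 0.46, Cnn1 by 0.45, Notch3 by 0.38 and Rgs5 by 0.33. Des differed by 0.01, Acta2 by -0.14 and Mcam by -0.41. Only Cspg4 was 1.5-fold apart, where 4.55% of genes were, and none was 2-fold apart (0.77% of genes). Cspg4 passed the filter there through the Irs1/2:FoxO1-flox control alone, so that call is no result. Skeletal muscle markers went the opposite way, with a median of -0.56 over the 17 measured and Myh4 at -3.01, as did mesothelial markers, with a median of -0.74 over 12 genes.

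The direct comparison of the Cre arrays and the comparison of the controls share no array. Tagln differed by 0.50 with Cre and by 0.46 without it, Notch3 by 0.36 and 0.38, Rgs5 by 0.51 and 0.33, Cnn1 by 0.81 and 0.45, and Myh11 by 0.89 and 0.52. Pdgfrb differed by 0.18 with Cre and 0.52 without it. For these 6 genes the floxed FoxO1 line was thus higher in both pairs of arrays, as it was for Des, there by only 0.01 between the controls. Of all genes, 57.4% were higher in LTKO than in LDKO and 55.5% were higher between the controls. The share higher in both pairs was not counted, so the number of such genes among the 10 is not read as a result. A stricter order, both arrays with floxed FoxO1 above both without it, held for these same 7 genes and for 23.4% of 11090 genes. The pairs were unlike for Acta2, with 1.00 for the Cre arrays and -0.14 for the controls, for Des, with 0.47 and 0.01, and for Cspg4, with -0.18 and 0.82. Averaged over both arrays of a line, the difference was largest for Myh11 (0.70) and Cnn1 (0.63), the 2 of the 10 at least 1.5-fold higher, where 1.31% of 11958 genes were. With 2 arrays a line that also differ in Cre, no test was made, and floxed line, litter and animal cannot be told apart.

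**Figure D3:**
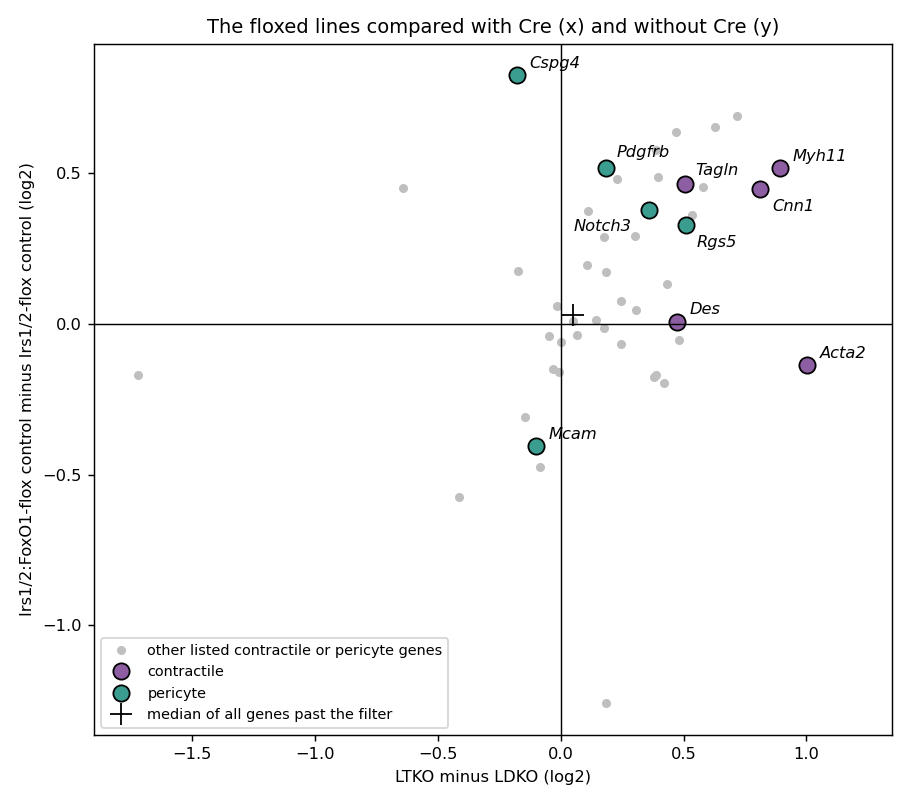
The difference between the floxed lines with Cre (LTKO minus LDKO, x axis, log2) and without Cre (the Irs1/2:FoxO1-flox minus the Irs1/2-flox array, y axis, log2) for the 10 genes, with other listed contractile and pericyte genes in grey and the median of all genes past the filter as a cross. Myh11, Cnn1, Tagln, Rgs5 and Notch3 lie at 0.33 or more on both axes, Acta2 and Des near 0 on the y axis, and Cspg4 at 0.82 on the y axis and left of 0 on the x axis.

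The difference of the effects, LTKO against its control minus LDKO against its control, was 1.14 for Acta2 and 2.01-fold in the negative direction for Cspg4, the 2 of the 10 that were at least 2-fold, where 4.01% of 11958 genes were. The other 8 lay between -0.33 and 0.47. The array that stood apart was LDKO for Acta2 and the Irs1/2-flox control for Cspg4.

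Other genes of the same cells were taken from lists. Of 23 other contractile genes past the filter, 15 were higher in LTKO than in LDKO (57.4% of all genes were), with a median of 0.18. At least 1.5-fold higher were 2, where 5.41% of all genes were, and at least 1.5-fold lower was 1, where 2.57% were. Those 2 were Itga8, the integrin of smooth muscle, with 5.77 in LTKO and 5.05 in LDKO, and Myl9, the regulatory myosin light chain, with 8.28 and 7.66 in those arrays. Itga8 passed the filter there through LTKO alone, so its part in that count is no result. The lower gene was Hspb6, a small heat shock protein, with 7.55 in LTKO and 8.19 in LDKO. Between the controls Itga8 was higher by 0.69, Myl9 by 0.65 and Lmod1, the leiomodin that nucleates actin, by 0.58 in the Irs1/2:FoxO1-flox control, while the list median was 0.01, with Nexn at -1.26 and the caldesmon gene Cald1 at -0.48. Against their own controls the list medians were -0.02 in LDKO and 0.09 in LTKO.

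Of 16 other pericyte genes, 13 were higher in LTKO than in LDKO (57.4% of all genes were), with a median of 0.20, against 0.05 over all genes. None was at least 1.5-fold higher, where 5.41% of all genes were. Art3 was higher by 0.58, the guanylate cyclase subunit Gucy1b1 by 0.54, Cd248 (endosialin) by 0.48 and Rgs4 by 0.47. Kcnj8 and Abcc9, the channel and receptor subunits of the ATP-sensitive potassium channel of mural cells, were higher by 0.39 and 0.23 there and by 0.49 and 0.48 between the controls. The list as a whole did not show this: 9 of 15 genes were higher between the controls, where 55.5% of all genes were, with a median of 0.07. Steap4, a metalloreductase also made by adipocytes, was 10.70 in LDKO, against 9.35 in its control, 8.97 in LTKO and 9.18 in the Irs1/2:FoxO1-flox control. It was the only gene of the list that was 2-fold apart in any of these comparisons. That was so in LDKO against its control, where 1.2% of all genes were, and in LTKO against LDKO, where 2.11% were.

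Regulators and signals of these programmes were counted at 1.5-fold. None of 10 SRF and myocardin regulators past the filter was that far apart in LDKO or LTKO against the own control (6.74% and 4.41% of all genes were), in LTKO against LDKO (7.98%) or between the controls (4.55%). In the difference of the effects 2 of 11 were, Klf4 (0.61) and Tead1 (0.60), where 13.0% of all genes were. Srf lay between 6.96 and 7.19, and Myocd, the myocardin gene, was 5.04 in LDKO, 5.08 in the Irs1/2-flox control, 5.42 in LTKO and 5.01 in the Irs1/2:FoxO1-flox control. Of 12 other Notch genes, Notch1 was 1.5-fold apart in LTKO against LDKO (0.61), and Dll4, which encodes an endothelial ligand, in LDKO against its control (0.63) and between the controls (0.59). Dll4 passed the filter in both through the higher array alone, so those calls are no result. Dll4 was 5.43 in LDKO, 4.80 in the Irs1/2-flox control, 4.98 in LTKO and 5.38 in the Irs1/2:FoxO1-flox control, an order in which the Irs1/2-flox control was lowest, as for Cspg4. The ligand gene Jag1 lay between 7.87 and 8.08. No PDGF gene past the filter, 5 or 6 of them by comparison, was 1.5-fold apart, and Pdgfb, the ligand for Pdgfrb, lay between 6.74 and 6.97. Of 10 TGF-beta genes, 1 was 1.5-fold apart in them, the inhibitory Smad gene Smad7, at 0.72 in LTKO against its control. In the difference of the effects Smad7 reached 1.09 and Dll4 -1.03.

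Endothelial markers, genes of the vessel lining, were read beside the mural genes. Over 13 of them the median difference was 0.01 in LDKO and -0.08 in LTKO, each against its own control, 0.02 in LTKO against LDKO and 0.19 between the controls. Cdh5 (VE-cadherin) lay between 10.34 and 10.41, Kdr between 9.34 and 9.38 and Pecam1 between 9.62 and 9.74 in the 4 arrays. Claudin-5 (Cldn5) was 7.37 in LDKO, 6.54 in the Irs1/2-flox control and 6.87 in both other arrays. Vwf, von Willebrand factor, was 6.435 in LDKO, 6.42 in the Irs1/2-flox control, 6.72 in LTKO and 7.10 in the Irs1/2:FoxO1-flox control. Plvap was 6.83, 6.91, 7.20 and 7.51 in those arrays, so both genes were higher in both arrays with floxed FoxO1. Of the 13 markers, 11 were higher between the controls, where 55.5% of all genes were. In LTKO against LDKO 7 were higher, where 57.4% of all genes were. All 9 fibroblast and progenitor markers were higher in LTKO than in LDKO (median 0.26), where 57.4% of all genes were higher with a median of 0.05. All 9 also lay below the Irs1/2-flox control in LDKO (median -0.25), where 56.7% of all genes did with a median of -0.05. Both comparisons use the LDKO array.

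**Figure D4:**
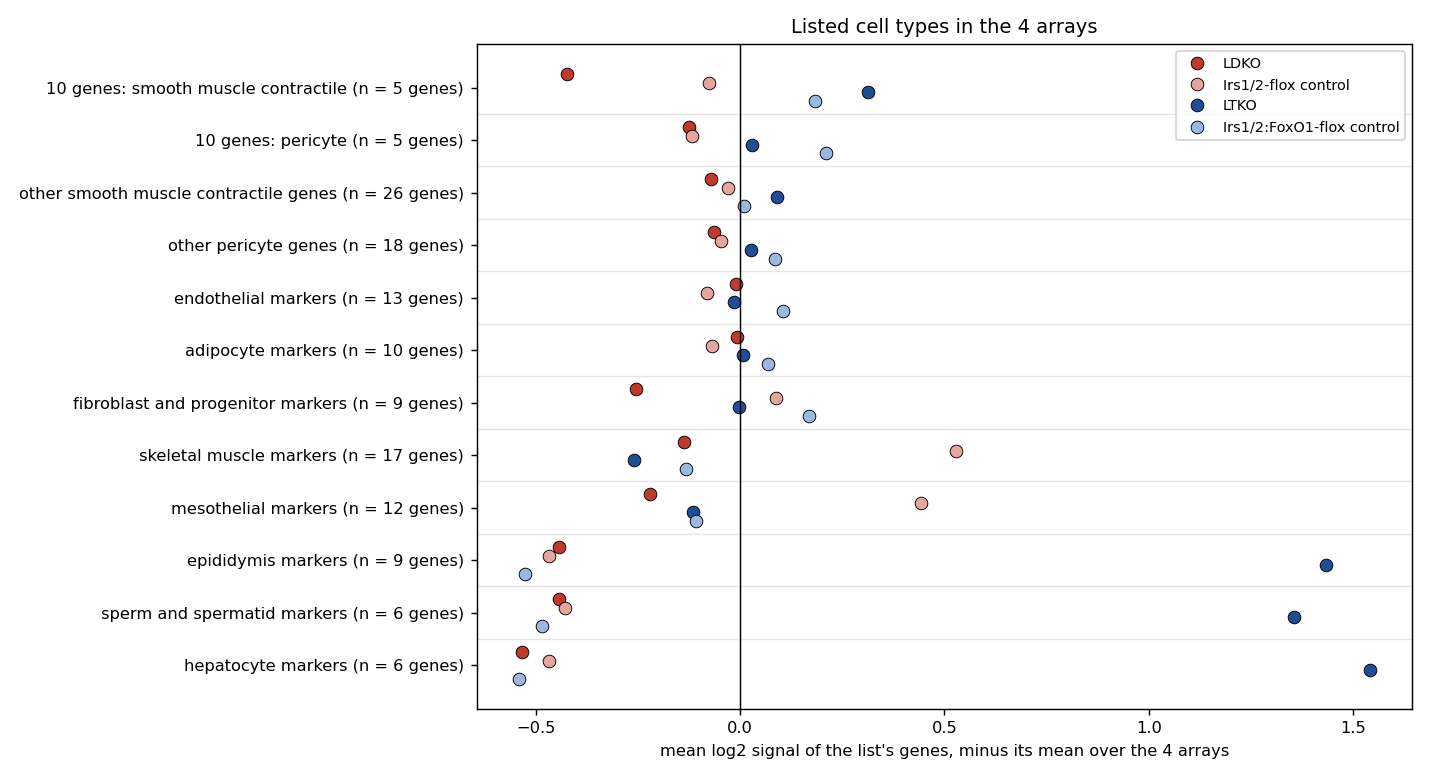
Mean log2 signal of each gene list in each array, minus the mean of that list over the 4 arrays (x axis, log2), with 1 point per array. The contractile genes average 7.30 in LDKO and 8.03 in LTKO, skeletal muscle and mesothelial markers are high in the Irs1/2-flox control, and epididymis, sperm and hepatocyte markers are high in LTKO.

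Paralogs of the contractile genes were compared, as a set chosen after values were seen. Acta1, the skeletal muscle actin, encodes a protein near-identical to that of Acta2, and whether their probe sets detect each other's RNA was not tested. It too was lowest in LDKO, with 7.21, against 8.73 in the Irs1/2-flox control, 8.26 in LTKO and 8.13 in the Irs1/2:FoxO1-flox control. The cytoplasmic actin genes Actb and Actg1 did not show this: Actb was higher by 0.11 in LDKO than in its control, where Acta1 differed by -1.52, and Actg1 lay between 9.50 and 9.59 in the 4 arrays. Actg2, the visceral smooth muscle actin, was below the median gene on average, with 4.71, 4.20, 5.12 and 4.99 in LDKO, the Irs1/2-flox control, LTKO and the Irs1/2:FoxO1-flox control. Among myosins, Myh11 was higher by 0.89 in LTKO than in LDKO, while the non-muscle heavy chains Myh9, Myh10 and Myh14 differed by -0.05, -0.24 and -0.18. Cnn2 and Cnn3, the calponins of other cells, differed by -0.08 and 0.09 where Cnn1 was at 0.81, and Tagln2 by -0.02 where Tagln was at 0.50. Tagln3, below the median gene on average, differed by -0.57.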

How the data were processed

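The authors deposited log2 signals per probe set of Affymetrix whole-transcript arrays, made with Affymetrix Expression Console and RMA, per the submitters' processing notes. Versions and the set of arrays normalized together were not given in the sources used here. RMA removes a shift common to all genes and compresses differences of dim probes.

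Of 41345 probe sets, 23521 had 1 gene symbol, 1814 had several and 16010 have no name here. Names were brought up to date by gene identifier through the GRCm38.p6 RefSeq table, which held 23328 of the 23521. A gene was its brightest probe set by mean, which gave 22180 genes. Only Rgs5 of the 10 had several.

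Differences were taken between single arrays, with no test. The filter, the 2-fold and 1.5-fold marks and the motif search are given beside the results. Members and lists (200 symbols, 191 measured) were chosen with earlier results of these data known. Genes named were all 10 members, up to 4 per list and comparison by size of difference, and the 5 genes with the nearest profile in each of 2 searches. Further list members, such as stable markers and known ligands, and the paralogs were named after their values were seen. Steps were tested on simulated data. Software was Python 3.11.15, pandas 2.3.3, numpy 2.4.6, statsmodels 0.14.6 and matplotlib 3.10.9.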

Additional observations from a re-analysis of the deposited data

Results flagged for a closer look

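For 5 of the 10 genes the LDKO and LTKO arrays differed from their own controls in opposite directions, as did 49.8% of 11108 genes past the filter in both comparisons. Each rests on 1 array per group, and the difference between the lines was not tested. Acta2 differed by -0.88 in LDKO and by 0.27 in LTKO, so that the effects were 1.14 apart. Cspg4 differed by 0.75 in LDKO and by -0.25 in LTKO, which puts the effects -1.0 apart. Des differed by -0.34 and 0.13 (0.47 apart), Myh11 by -0.19 and 0.18 (0.37 apart) and Mcam by -0.24 and 0.0656 (0.31 apart), in LDKO and LTKO.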

How the results depend on the processing

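No paired analysis was possible because each group has 1 array and no result comes from a test. The median of the 10 genes in LDKO was -0.22 with its own control as reference, -0.52 with the other one and -0.33 with their mean. In LTKO it was 0.02, and 0.20 against the other control, 0.15 against the mean of both, -0.0253 as a mean over the genes, -0.0691 without Des and Mcam and -0.0357 with arrays centred on the median gene, so its sign is not settled. Between the controls the mean was 0.29, where the median was 0.41. The difference of the effects had a median of 0.24, and 0.11 without Des and Mcam. At 1.5-fold in place of 2-fold, the genes called were 1 higher and 1 lower in LDKO, 3 higher in LTKO against LDKO and 1 higher between the controls. The gene called higher in LDKO and between the controls was Cspg4, which passed the filter there through 1 array alone. At 3-fold, 0 were called in LTKO against LDKO and 0 either way in the difference of the effects. In that difference Cspg4, the 1 gene called lower, was not counted when the filter stood at the 70th percentile, which it does not reach (0 called). With a loess curve removed its difference was -0.98, just inside the 2-fold mark (0 called). Acta2 in LTKO against LDKO was 0.99 with arrays centred on the median gene (0 called). Quantile normalization again, the mean of all probe sets, the loess curve and the centring each moved none of 50 differences of single genes by 0.1 or more (at most 0.086). The other control moved 18 of 20 and changed the sign of 9. Leaving out Des and Mcam, and centring, were chosen after seeing the data.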

Other observations

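The genes nearest in profile over the 4 arrays were looked up among 10188 named genes whose mean reached the median gene. The measure was the root mean square distance between profiles centred on their own mean. For the mean profile of Acta2, Myh11, Tagln and Cnn1 they were Nrbp2 (0.047), Med18, Fut8, Il15ra and Ehmt1 (0.055), and of the 4 genes that made the profile, Cnn1 lay at 0.066 and Acta2 at 0.20. Nrbp2 was 8.01 in LDKO, 8.24 in the Irs1/2-flox control, 8.72 in LTKO and 8.63 in the Irs1/2:FoxO1-flox control. For the mean profile of Cspg4, Rgs5, Pdgfrb and Notch3 they were Ccm2l (0.0066), Polg2, Timm17b, Slc25a22 and Arel1 (0.022). Ccm2l was 6.68 in LDKO, 6.61 in the Irs1/2-flox control, 6.89 in LTKO and 7.14 in the Irs1/2:FoxO1-flox control. With 4 arrays many genes lie near any profile, and no shared role is read from this.

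Rgs2, a relative of Rgs5 that also damps G protein signals in smooth muscle, was 8.08 in LDKO, 8.96 in the Irs1/2-flox control, 7.63 in LTKO and 8.63 in the Irs1/2:FoxO1-flox control by its brighter probe set, lower in both Cre arrays than in both controls. None of the 10 genes had that order, but the share of all genes with it was not counted, so this is not read as a result. Rgs2 was picked after values were seen. Its dimmer probe set lay between 3.20 and 3.34, below the median gene, and differed by -0.14 in LDKO and -0.03 in LTKO against their own controls.

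Other listed cell types were read in the same way. Macrophage markers had a median of -0.32 over 9 genes in LDKO and in LTKO, each against its own control. Arterial endothelial markers had medians of -0.06 in LDKO and -0.28 in LTKO against those controls, over the 5 measured. Of 3 measured Schwann cell markers, cells that can also carry Cspg4 and Mcam, only Mbp passed the filter on dim genes, with 5.21 in LDKO, 5.51 in the Irs1/2-flox control, 5.46 in LTKO and 5.43 in the Irs1/2:FoxO1-flox control.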
